A study of Homo sapiens with 12 samples.

Results

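The genes described here encode subunits of the oxidative phosphorylation system, 58 in number among the 60902 genes of the table. They are the 13 messages of the mitochondrial genome and 45 nuclear genes for subunits of complexes I to V. They were chosen by symbol, and all 58 were found and reached the mean of 1 TPM at which 13854 genes were tested. TPM is the level of a gene per unit of length, as its share of all transcripts of a library scaled to the same total. By complex, the mitochondrial genome gives 7 messages for complex I, 1 for complex III, 3 for complex IV and 2 for complex V, and the nuclear members number 17, 4, 6, 10 and 8 for complexes I to V.

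RNA was sequenced from A549/DDP, a human lung adenocarcinoma line selected for resistance to cisplatin (DDP, a platinum drug that binds DNA). The 4 groups of 3 libraries were TRF+DDP (labelled TRF_DDP), TRF, DDP and CON. TRF is a medium schedule that mimics time-restricted feeding, with 6 h in full medium and 18 h in medium lacking serum and glucose in each 24 h cycle. TRF+DDP cells had this schedule together with DDP, TRF cells the schedule without DDP, DDP cells the drug in full medium, and CON cells full medium throughout. The line was kept in DDP between experiments in all groups, and the sources used here do not say whether it was withdrawn beforehand. The study states DDP doses and times for other assays of this line. A dose and time also stand in a legend that covers sequencing and quantitative PCR, without saying whether they hold for the sequenced cells. It is 1 cultured line, so the groups have no second genetic background, and the labels do not say whether the 3 libraries of a group came from separate cultures. The same legend calls the replicates of each group biological. The p-values measure the spread between these libraries.

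Oxidative phosphorylation passes electrons from NADH and succinate along complexes I to IV to oxygen and uses the proton gradient so made to drive ATP synthase, complex V. Complexes I, III, IV and V are each built from subunits of both genomes, whereas complex II is wholly nuclear. The mitochondrial messages are cut from long transcripts of a circular chromosome, in most cases at the transfer RNAs that lie between them, and are given poly(A) tails, while each nuclear subunit gene has its own promoter and its protein is imported.

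Between 13029 and 14028 genes reached 1 TPM in a library. Across genes, libraries of the same group correlated at 0.979 to 0.983 (Pearson's r of log2 levels) and libraries of different groups at 0.915 to 0.979. Of 6 epithelial markers, KRT8, KRT18 and KRT7 stood at 423 to 1452 TPM, whereas KRT19, EPCAM and CDH1 were below 1 TPM in all 12 libraries. No endothelial marker of 6 was tested. The fibroblast list had COL1A1 alone of 6 tested, and its summed level was 5.92 to 6.99 TPM in TRF+DDP, 10.5 to 11.9 TPM in TRF, 16.5 to 21.0 TPM in DDP and 14.1 to 16.6 TPM in CON. The leukocyte list had ITGAM alone of 6 tested, with sums of 3.62 to 5.20 TPM in TRF+DDP, 1.51 to 1.72 TPM in TRF, 4.54 to 5.41 TPM in DDP and 3.21 to 3.53 TPM in CON, and PTPRC, which defines leukocytes, was at most 0.01 TPM. The part of these markers in the results was not tested. The number of reads behind the TPM values is unknown.

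Several mitochondrial messages share bases, and reads of a shared stretch cannot be assigned to 1 of them. The annotated sequences of MT-ATP8 and MT-ATP6, the 2 mitochondrial subunits of ATP synthase, overlap by 46 bases. This is 22.2% of MT-ATP8 and 6.75% of MT-ATP6. The annotated sequences of MT-ND4L and MT-ND4, subunits of the membrane arm of complex I, overlap by 7 bases. The word message stands here for an annotated gene, and counts of messages take each as 1. Whether overlapping genes lie on the same RNA was not examined, and their values are not separate observations. Both junctions are printed from the GENCODE v29 transcripts (GRCh38, plus strand, chrM:8515-8584 and chrM:10748-10778), with the shared bases in capitals.
MT-ATP8 and MT-ATP6: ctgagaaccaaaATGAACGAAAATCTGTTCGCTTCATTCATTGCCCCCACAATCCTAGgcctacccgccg
MT-ND4L and MT-ND4: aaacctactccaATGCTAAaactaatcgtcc

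The libraries were made from RNA selected by its poly(A) tail. The ends described here are those of the annotation, and where the captured RNA itself ended was not examined. In 6 of the 13 annotated messages the stop codon is incomplete in the chromosome and is finished by the tail. In the other 7 the annotated sequence ends in a complete one. The last 30 annotated bases of 4 messages on which the results turn are printed. The stop, or the part of it that is encoded, is in capitals. They are MT-ND1 (chrM:4233-4262), MT-CO1 (chrM:7416-7445), MT-CO3 (chrM:9961-9990) and MT-CYB (chrM:15858-15887), all on the plus strand.
MT-ND1: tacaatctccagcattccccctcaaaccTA
MT-CO1: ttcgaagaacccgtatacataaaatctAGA
MT-CO3: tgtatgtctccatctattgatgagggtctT
MT-CYB: taattgaaaacaaaatactcaaatgggccT
MT-ND1, MT-CO3 and MT-CYB have incomplete stops, whereas MT-CO1 ends in AGA. MT-CYB and MT-CO3, which fell in TRF+DDP against DDP, both have incomplete stops. MT-CO1 and MT-ATP6, which fell beside MT-CO3 in TRF against CON, have complete ones. Whether the stop bears on the level was not tested.

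All 13 mitochondrial messages have copies in the nuclear genome that are named as pseudogenes, 394 in all. Most of these copies were near 0, but MTCO1P12 had a mean of 807 TPM and the copies of MT-CO1 together 6.75% of the level of MT-CO1, and those of MT-ATP6 had 4.49% of its level. The values of MT-CO1 and MT-ATP6 are therefore uncertain. These shares do not limit by how much, because the sources used here do not say how reads shared with copies were counted. Among nuclear members the copies of SDHA reached 12.4% and those of UQCRFS1 11.4% of the gene's level. The use of strand in counting is not given in the sources used here, so MT-ND6, which lies on the other strand than the remaining messages, cannot be told apart from antisense RNA of its neighbours.

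The 13 messages took up 7.61%, 7.29% and 7.63% of all TPM in TRF+DDP libraries, 8.42%, 8.20% and 6.02% in TRF libraries, 9.20%, 9.30% and 9.23% in DDP libraries, and 9.72%, 10.2% and 10.2% in CON libraries. Every TRF+DDP library was below every DDP library, and every TRF library and every DDP library below every CON library. The 45 nuclear genes took up 1.14% to 1.20% in TRF+DDP, 1.09% to 1.15% in TRF, 1.19% to 1.21% in DDP and 1.13% to 1.16% in CON. Between TRF+DDP and DDP the mitochondrial share differed by -1.73 percentage points and between TRF and CON by -2.49 (two-sided exact permutation p = 0.1 in each, the smallest that 3 against 3 libraries allow). The nuclear share differed by -0.0338 percentage points between TRF+DDP and DDP and by -0.0387 between TRF and CON, with overlapping libraries in both (exact permutation p = 0.3 and 0.2). Between DDP and CON the mitochondrial share differed by -0.80 percentage points and the nuclear share by 0.0495. Libraries did not overlap in either (exact permutation p = 0.1 in each). In a bulk sample, fewer cells of a kind and less RNA of a gene per cell cannot be told apart.

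**Figure D1:**
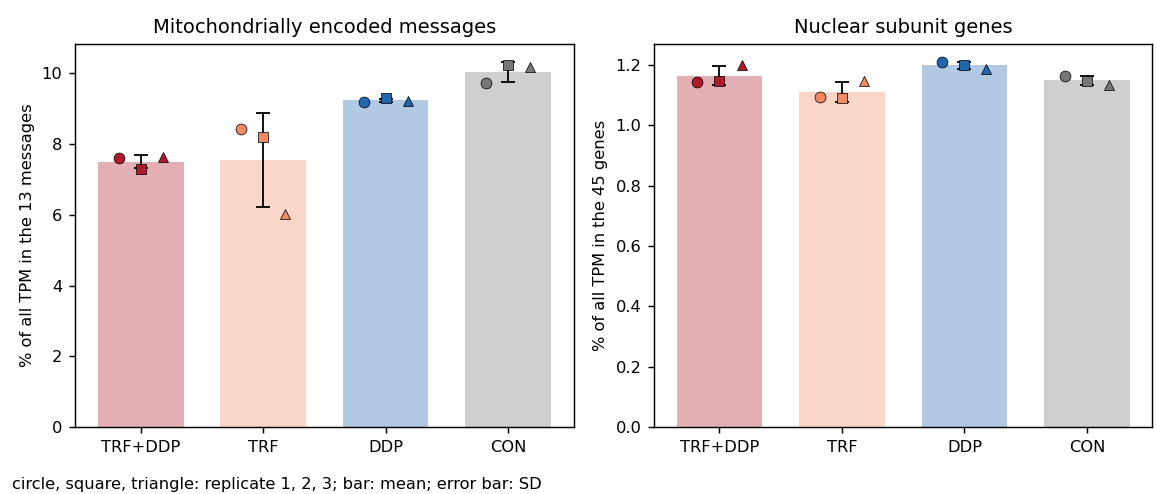
Percent of all TPM in the 13 mitochondrially encoded messages (left) and in the 45 nuclear subunit genes (right), by group, with 1 point per library, bars for the mean and error bars for the SD of 3 libraries. The mitochondrial share is lower in TRF+DDP than in DDP, in TRF than in CON and in DDP than in CON, with TRF replicate 3 lowest at 6.02%. The nuclear share stays between 1.09% and 1.21%.

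TRF replicate 3 stood apart in the mitochondrial messages. Each of the 13 was there at 62.4% to 85.5% of the mean of TRF replicates 1 and 2 (median 71.9%), whereas the 45 nuclear members were at 90.0% to 120% of theirs (median 104%). Fold changes of mitochondrial genes that rest on the TRF group are therefore also given without this library.

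Differences were tested with limma on log2(TPM + 1), all 4 groups together, and p-values were adjusted by the Benjamini-Hochberg method across the 13854 genes. A gene was called where the adjusted p was under 0.05 and the fold over 1.5, and fold changes are on the log2(TPM + 1) scale. The comparisons of TRF+DDP, TRF and DDP share groups of libraries and are not independent of each other. The fit pools the spread of each gene over all 4 groups. TRF replicate 3 therefore also enters the SE and p-values of mitochondrial messages in comparisons that do not use the TRF group.

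In TRF+DDP against DDP, MT-CYB and MT-CO3 were called lower and no mitochondrial message was called higher. The members called lower were 2 of 13, beside 21.4% of all genes, and 0 were called higher, beside 11.8%. By the adjusted p alone 6 were lower and 1 higher, beside 38.4% and 27.0% of all genes. The median over the 13 was -0.19, and that over all genes -0.10.

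MT-CYB encodes cytochrome b, the mitochondrial subunit of complex III that carries its quinone sites (chrM, 14747 to 15887). Its level was 2007, 1899 and 1860 TPM in TRF+DDP libraries, 2805, 2699 and 2049 TPM in TRF libraries, 3113, 3271 and 3213 TPM in DDP libraries, and 3550, 3827 and 3695 TPM in CON libraries. TRF+DDP libraries were lowest, and no library of theirs overlapped with any other group. The log2 fold change was -0.73 ± 0.09 (SE) against DDP (limma adjusted p = 3.22e-05) and -0.94 ± 0.09 against CON (adjusted p = 3.8e-06), and both calls held in the 21 alternatives that keep the scale of all genes. Against TRF it was -0.38 (adjusted p = 0.00655), and -0.52 without TRF replicate 3, a library that stood apart, both under the fold threshold.

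MT-CO3, a subunit of the catalytic core of complex IV, cytochrome c oxidase (chrM, 9207 to 9990), was at 7301, 7157 and 7629 TPM in TRF+DDP, 8440, 8337 and 6667 TPM in TRF, 11764, 11898 and 11291 TPM in DDP, and 12185, 12902 and 12809 TPM in CON. All libraries on the TRF schedule, with or without DDP, were below all those in full medium. The log2 fold change was -0.66 ± 0.07 in TRF+DDP against DDP (limma adjusted p = 6.73e-06) and -0.70 ± 0.07 in TRF against CON (adjusted p = 5.94e-06). The fold dropped below 1.5 in TRF+DDP against DDP with TMM-style scaling or quantile normalization, and in TRF against CON with quantile normalization. Without TRF replicate 3 the value in TRF against CON was -0.59, still called.

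MT-ATP6 and MT-ATP8, subunits of the membrane part of ATP synthase, were also low on the TRF schedule. MT-ATP6 (chrM, 8527 to 9207) had 4090, 3809 and 4271 TPM in TRF+DDP, 4605, 4411 and 3274 TPM in TRF, 5689, 5916 and 5607 TPM in DDP, and 6326, 6663 and 6569 TPM in CON. MT-ATP8 (chrM, 8366 to 8572) had 10645, 10931 and 11485 TPM in TRF+DDP, 14090, 13196 and 8808 TPM in TRF, 16047, 15728 and 16958 TPM in DDP, and 17052, 17863 and 17718 TPM in CON. For both genes the libraries on the TRF schedule did not overlap with those in full medium. MT-ATP6 had log2 fold changes of -0.50 in TRF+DDP against DDP (adjusted p = 0.00147), under the fold threshold, and -0.69 in TRF against CON (adjusted p = 0.0002), and MT-ATP8 had -0.56 and -0.57 (adjusted p = 0.00677 and 0.00669). In TRF against CON, MT-ATP6 and MT-ATP8 were -0.53 and -0.36 without TRF replicate 3, neither called.

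**Figure D2:**
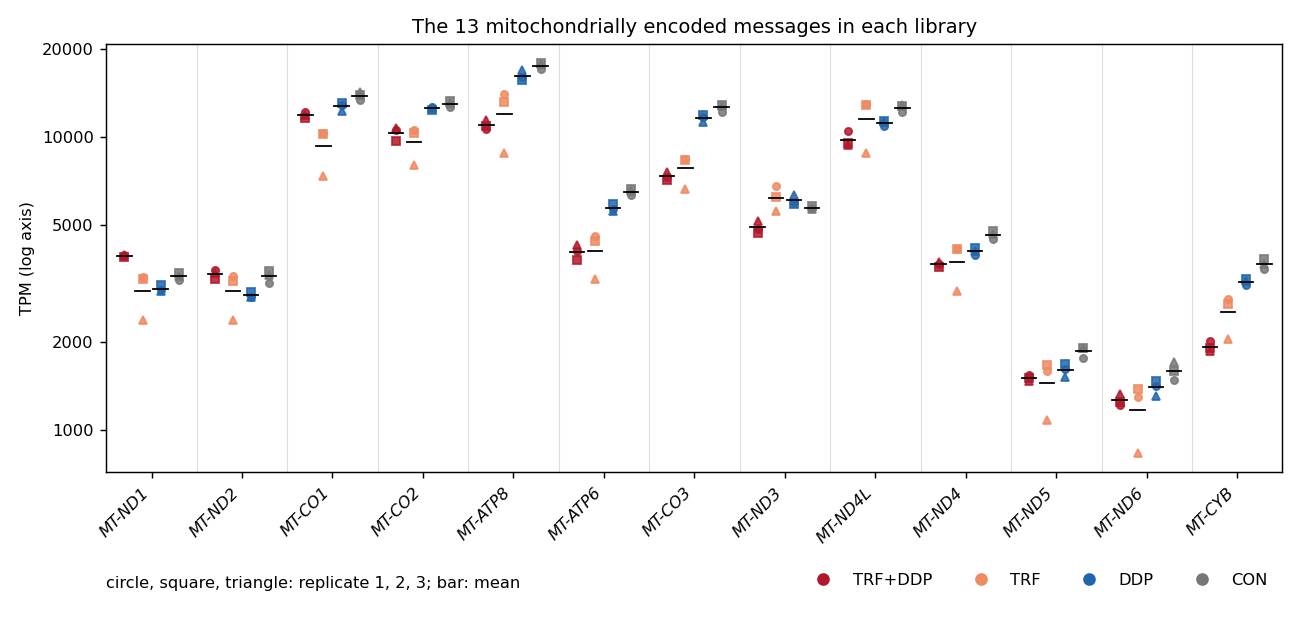
TPM (log axis) of each of the 13 mitochondrially encoded messages in the 12 libraries, with genes in their order on the chromosome, 1 point per library (circle, square and triangle for replicates 1, 2 and 3) and a bar at the group mean. MT-CYB, MT-CO3, MT-ATP6 and MT-ATP8 are lower in TRF+DDP than in DDP, MT-ND1 is higher at 3904 to 3961 TPM, and the triangle of TRF lies below its circle and square for all 13.

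In TRF against CON, MT-CO3, MT-ATP6 and MT-CO1 fell, 3 of 13 called lower beside 17.1% of all genes, with 0 called higher beside 8.41%. By the adjusted p alone 9 messages were lower and 0 higher, beside 37.0% and 23.7% of all genes (unadjusted p under 0.05 for 9 lower and 0 higher). The median was -0.45, against -0.11 over all genes. MT-CO1, the subunit that holds the copper and heme site of complex IV (chrM, 5904 to 7445), had 12153, 11602 and 11863 TPM in TRF+DDP, 10317, 10271 and 7383 TPM in TRF, 12888, 13074 and 12241 TPM in DDP, and 13407, 13967 and 14258 TPM in CON. Its log2 fold change in TRF against CON was -0.59 (adjusted p = 0.00068), just past the 1.5-fold limit.

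The count of TRF against CON depended on single libraries. Without TRF replicate 3, 1 message was called (MT-CO3), the median was -0.25, and MT-CO1 and MT-ATP6 stood at -0.43 and -0.53. Without TRF replicate 1 there were 5 calls, without TRF replicate 2 there were 6, and without CON replicate 1 there were 5. MT-ND3 had a log2 fold change of 0.11 in this comparison with all libraries and 0.19 without TRF replicate 3, the highest of the 13 in both.

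Against CON, TRF+DDP had 4 of 13 messages called lower beside 19.5% of all genes, MT-CYB, MT-CO3 (-0.78), MT-ATP6 (-0.69) and MT-ATP8 (-0.67), and 0 higher beside 15.6%. By the adjusted p alone 8 were lower and 0 higher, beside 35.3% and 31.9%. The median of the 13 was -0.33 and that of all genes -0.03. With quantile normalization 2 calls were left, MT-CYB and MT-ATP6.

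Between TRF+DDP and TRF, 0 messages were called in either direction by limma, beside 10.2% of all genes higher and 6.10% lower. By the adjusted p alone 2 were higher, MT-ND1 and MT-CO1 (0.42 and 0.37), and 2 lower, MT-CYB and MT-ND3 (-0.38 and -0.33), beside 28.1% and 19.8% (unadjusted p under 0.05 for 2 and 2). The median was 0.00, and -0.15 without TRF replicate 3, when MT-ND1, MT-CO1, MT-CYB and MT-ND3 stood at 0.26, 0.21, -0.52 and -0.41. Quantile normalization gave 1 call higher.

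In DDP against CON, 0 of 13 messages were called by limma, beside 1.86% of all genes higher and 0.159% lower, and none had an adjusted p (10.0% and 2.17% of all genes) or an unadjusted p under 0.05. Without TRF replicate 3, 9 messages had an adjusted p under 0.05, all lower and none past 1.5-fold. In that fit 1437 of 13854 genes were higher and 319 lower by the adjusted p alone. With the 2 groups fitted alone 7 messages passed it, beside 1333 genes higher and 319 lower. For 11 messages every DDP library was below every CON library, beside 8.89% of all genes, and for 1, MT-ND3, every DDP library was above, beside 25.7%. The log2 fold changes of the 13 had a median of -0.17, and that of all genes was 0.06. The messages share their libraries, so these counts are not separate observations.

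MT-ND1 departed from most other messages in TRF+DDP. It encodes the subunit of complex I near the quinone entry (chrM, 3307 to 4262) and had 3961, 3904 and 3952 TPM in TRF+DDP, 3317, 3267 and 2362 TPM in TRF, 2999, 3119 and 2979 TPM in DDP, and 3249, 3440 and 3353 TPM in CON. Every TRF+DDP library was above every other library. The log2 fold change was 0.38 ± 0.10 against DDP (limma adjusted p = 0.00719), under the fold threshold. As a share of the 13 messages, MT-ND1 made up 5.18% to 5.36% in TRF+DDP, 3.92% to 3.98% in TRF, 3.23% to 3.35% in DDP and 3.30% to 3.36% in CON. MT-ND2 went the same way less far, with every TRF+DDP library above every DDP library (log2 fold change 0.24, limma adjusted p = 0.0665). It made up 4.49% to 4.60% in TRF+DDP, 3.92% to 3.97% in TRF, 3.08% to 3.18% in DDP and 3.27% to 3.41% in CON. MT-CYB made up 2.44% to 2.64% in TRF+DDP, 3.29% to 3.40% in TRF, 3.39% to 3.52% in DDP and 3.63% to 3.74% in CON.

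The shares do not depend on how far the whole set moved, so the messages were also fitted after subtracting the mean log2 level of the 13 in each library, an alternative chosen after the data were seen. On that scale MT-ND1 was 0.62 higher in TRF+DDP than in DDP and was called, and MT-ND2 was 0.48 higher. MT-CYB, MT-CO3 and MT-ATP8 were -0.50, -0.42 and -0.32, each with an adjusted p under 0.05 and under the fold threshold, so the calls of MT-CYB and MT-CO3 were lost on that scale. MT-ND3 was 0.51 in TRF against CON, and 0.43 without TRF replicate 3. The messages thus did not change by 1 common factor.

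In their order on the chromosome, the log2 fold changes in TRF+DDP against DDP were 0.38 for MT-ND1, 0.24 for MT-ND2, -0.10 for MT-CO1, -0.28 for MT-CO2, -0.56 for MT-ATP8, -0.50 for MT-ATP6 and -0.66 for MT-CO3. From there they were -0.31 for MT-ND3, -0.19 for MT-ND4L, -0.15 for MT-ND4, -0.09 for MT-ND5, -0.15 for MT-ND6 and -0.73 for MT-CYB. The values thus became lower along the first part of the chromosome, were nearer to 0 over the complex I messages that follow, and were lowest at MT-CYB, the last gene. MT-ND1 and MT-ND2 differ from the other complex I messages in lying before MT-CO1.

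The 2 ribosomal RNAs lie ahead of MT-ND1. MT-RNR1, the 12S rRNA of the mitochondrial ribosome (chrM, 648 to 1601), had 2735, 2877 and 2595 TPM in TRF+DDP, 1022, 1226 and 867 TPM in TRF, 1730, 1661 and 1494 TPM in DDP, and 1369, 1266 and 1414 TPM in CON. MT-RNR2, the 16S rRNA (chrM, 1671 to 3229), had 6679, 7102 and 6491 TPM in TRF+DDP, 3190, 3716 and 2648 TPM in TRF, 5221, 5330 and 5038 TPM in DDP, and 4599, 4731 and 4917 TPM in CON. Both were highest in TRF+DDP and lowest in TRF, with no overlap between those groups and the others. MT-RNR1 rose by 0.75 ± 0.11 in TRF+DDP against DDP (adjusted p = 8.89e-05) and by 1.41 against TRF (adjusted p = 1.62e-06). MT-RNR2 rose by 1.10 ± 0.09 against TRF (adjusted p = 3.64e-06) and was 0.38 higher against DDP (adjusted p = 0.00421), as far as MT-ND1. The values against TRF were 1.29 for MT-RNR1 and 0.97 for MT-RNR2 without TRF replicate 3, both called. These rRNAs carry at most short tails, and in poly(A)-selected libraries their TPM is not a measure of all rRNA. The mitochondrial transfer RNAs were listed at 0 in every library.

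**Figure D3:**
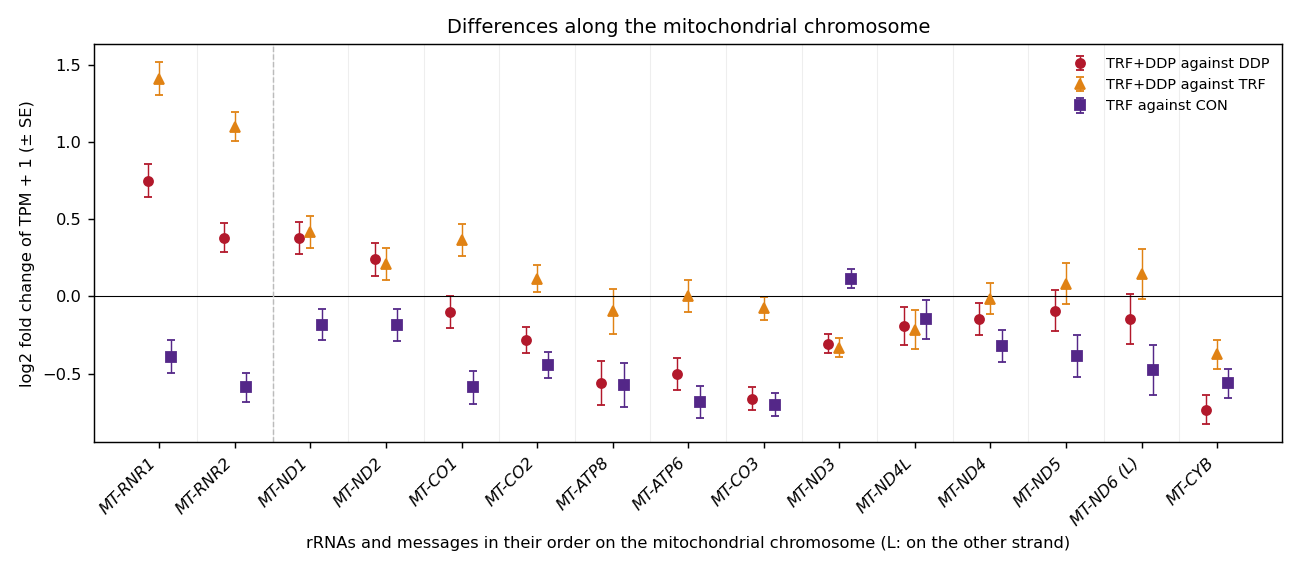
Log2 fold change of TPM + 1 (± SE) of the 2 rRNAs and 13 messages in their order on the mitochondrial chromosome, in TRF+DDP against DDP (circles), TRF+DDP against TRF (triangles) and TRF against CON (squares), with MT-ND6 on the other strand. In TRF+DDP against DDP the values run from 0.75 at MT-RNR1 to -0.66 at MT-CO3 and -0.73 at MT-CYB, whereas TRF against CON is below 0 throughout except at MT-ND3 (and, without TRF replicate 3, at MT-ND4L with 0.03).

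The interaction, the DDP effect on the TRF schedule minus the DDP effect in full medium, was called at an adjusted p under 0.05 alone. MT-ND1 (0.56 ± 0.14, limma adjusted p = 0.0142) and MT-CO1 (0.49, adjusted p = 0.0323) were higher and MT-ND3 (-0.42 ± 0.09, adjusted p = 0.00335) lower. These are 2 and 1 of 13, beside 13.5% of all genes higher and 16.3% lower. MT-ND3 had 4871, 4721 and 5161 TPM in TRF+DDP, 6827, 6235 and 5581 TPM in TRF, 5992, 5888 and 6363 TPM in DDP, and 5708, 5796 and 5665 TPM in CON, with TRF+DDP below all the others. MT-ND1 and MT-ND3 were called in all 20 alternatives, and MT-CO1 lost its call in 9. The median interaction of the 13 was 0.17. Without TRF replicate 3, 7 messages were called, 3 higher and 4 lower, beside 1587 of 13854 genes higher and 2142 lower. The median was then 0.0309, with 0.40 for MT-ND1, 0.33 for MT-CO1 and -0.50 for MT-ND3. MT-RNR1 and MT-RNR2 had interactions of 1.14 and 0.97 (adjusted p = 0.000281 and 0.000339), and of 1.02 and 0.84 without TRF replicate 3.

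None of the remaining complex I messages was called. MT-ND4, MT-ND4L, MT-ND5 and MT-ND6, all of the membrane arm, had log2 fold changes of -0.32, -0.15, -0.39 and -0.48 in TRF against CON, with adjusted p under 0.05 for MT-ND4, MT-ND5 and MT-ND6. Without TRF replicate 3 these were -0.16, 0.03, -0.19 and -0.25. MT-CO2, the copper-binding subunit of complex IV, was -0.28 in TRF+DDP against DDP and -0.45 in TRF against CON, or -0.32 without TRF replicate 3.

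The nuclear subunit genes gave few calls. Of the 45, 2 were called lower in TRF+DDP against DDP, NDUFA2 and ATP5F1A, and 0 higher. By the adjusted p alone 13 were higher and 13 lower. The median was 0.03. Between TRF and CON, 2 of 45 were called lower, NDUFA2 and SDHA, and 0 higher, and 7 were higher and 17 lower by the adjusted p alone, with a median of 0.00. The background shares are those given for the same comparisons with the mitochondrial messages. In both comparisons the share of nuclear members called lower was below that of all genes, and nearly all members differed by less than 1.5-fold.

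Small differences of the nuclear members depended on scaling. As deposited, the median of all genes was -0.11 in TRF against CON and -0.10 in TRF+DDP against DDP, and with TMM-style scaling it was -0.02 and -0.01. With that scaling 19 nuclear members were higher and 8 lower by the adjusted p alone in TRF against CON, the opposite balance. Beside them 4103 of all 13849 genes tested were higher and 4194 lower. With quantile normalization the members were 7 and 19, beside 4124 and 3926 of 13854 genes. The split of all called genes in TRF against CON was 32.9% higher as deposited, 45.9% with TMM-style scaling and 49.8% with quantile normalization. In TRF+DDP against DDP it was 35.5%, and 48.9% with quantile normalization, in TRF+DDP against TRF 62.6%, 51.3% and 49.6%, and in DDP against CON 92.1%, and 78.6% with quantile normalization. No direction is therefore given for the nuclear members as a group.

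**Figure D4:**
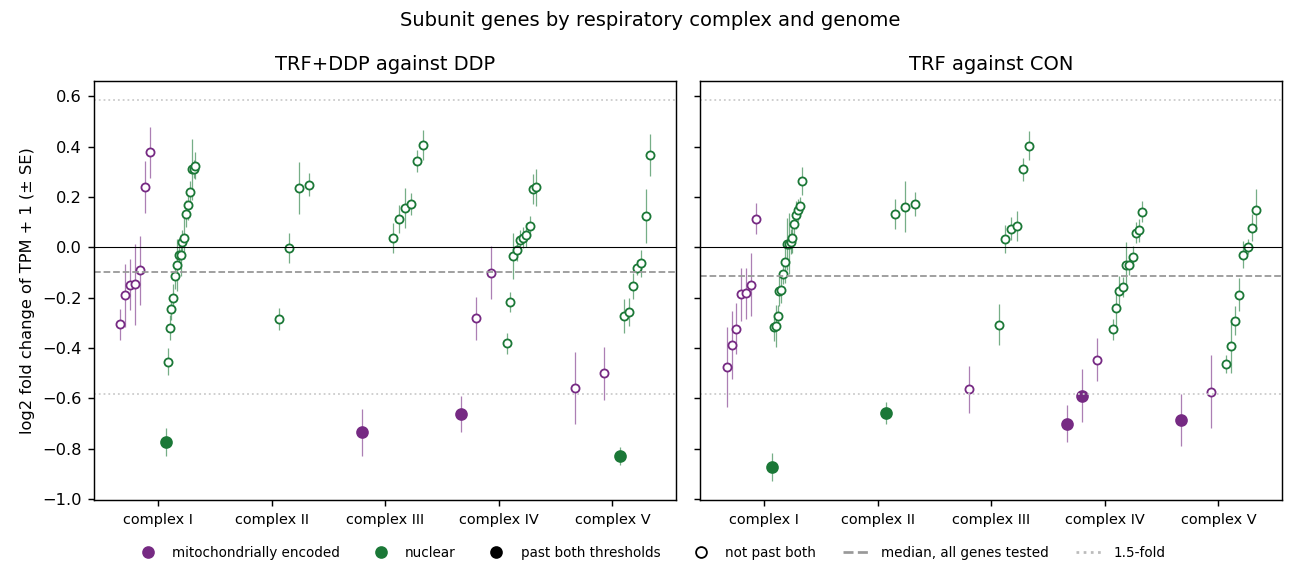
Log2 fold change of TPM + 1 (± SE) of each subunit gene by complex, mitochondrially encoded and nuclear side by side, in TRF+DDP against DDP (left) and TRF against CON (right), with filled points for genes past both thresholds, dotted lines at 1.5-fold and a dashed line at the median of all genes tested. In complexes III, IV and V the mitochondrial members lie at or below most nuclear ones. The nuclear members past both thresholds on the left are NDUFA2 of complex I at -0.77 and ATP5F1A of complex V at -0.83.

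NDUFA2, an accessory subunit of the NADH-oxidizing module of complex I (GENCODE v29, GRCh38, chr5:140638740-140647785, minus strand), fell in every comparison of the TRF schedule with full medium. It had 128, 131 and 147 TPM in TRF+DDP, 120, 112 and 124 TPM in TRF, 236, 224 and 236 TPM in DDP, and 218, 211 and 225 TPM in CON. The libraries on the schedule lay far below those in full medium with no overlap. The log2 fold change was -0.77 ± 0.06 in TRF+DDP against DDP (limma adjusted p = 1.08e-07), -0.87 ± 0.06 in TRF against CON (adjusted p = 6.17e-08) and -0.69 in TRF+DDP against CON, and these calls held in all 21 alternatives. NDUFV1, NDUFV2 and NDUFS1, core subunits of the same module, had -0.27, 0.04 and 0.13 in TRF against CON.

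ATP5F1A, the alpha subunit of the catalytic head of ATP synthase (chr18:46080248-46104334, minus strand), had 187, 177 and 185 TPM in TRF+DDP, 244, 238 and 251 TPM in TRF, 323, 334 and 322 TPM in DDP, and 345, 337 and 330 TPM in CON. TRF+DDP libraries were lowest, TRF libraries came next, and neither overlapped with DDP or CON. The log2 fold change was -0.83 ± 0.04 in TRF+DDP against DDP (adjusted p = 1.47e-09) and -0.46 in TRF against CON (adjusted p = 3.9e-07), under the fold threshold. The interaction was -0.37 ± 0.05 (adjusted p = 0.000237). The log2 fold change with DDP was -0.42 on the TRF schedule and -0.05 in full medium, so the fall was larger on the schedule. ATP5F1B, the beta subunit that pairs with it in the head, was at 668 to 680 TPM in TRF+DDP and 707 to 725 TPM in DDP, with a log2 fold change of -0.08.

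SDHA, the flavoprotein of complex II that oxidizes succinate (chr5:218241-256700, plus strand), had 122, 114 and 116 TPM in TRF+DDP, 88.5, 81.0 and 87.0 TPM in TRF, 143, 142 and 145 TPM in DDP, and 134, 133 and 139 TPM in CON. It fell by 0.66 on the log2 scale in TRF against CON (adjusted p = 8.52e-08), which TMM-style scaling moved under the fold threshold. Its interaction was 0.38 ± 0.06 (adjusted p = 0.000741), and TRF+DDP libraries lay between those of TRF and those of full medium. The other subunits of complex II, the iron-sulfur subunit SDHB and the membrane anchors SDHC and SDHD, had 0.17, 0.13 and 0.16 in TRF against CON. SDHB passed the adjusted p in that comparison, with 116 to 124 TPM in TRF against 100 to 111 TPM in CON.

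UQCRC2, a core protein of complex III (chr16:21952660-21983660, plus strand), was the only nuclear member called higher in a pairwise comparison. It had 124, 126 and 122 TPM in TRF+DDP, 107, 112 and 107 TPM in TRF, 86.1, 102 and 92.7 TPM in DDP, and 86.4, 81.3 and 78.5 TPM in CON. Every library on the TRF schedule was above every library in full medium. The log2 fold change in TRF+DDP against CON was 0.59 ± 0.06 (adjusted p = 1.68e-06), just past 1.5-fold, and the call was lost in 4 alternatives, among them those without CON replicate 3 and without TRF+DDP replicate 2. In that comparison 1 of 45 nuclear members was called higher and 2 lower, NDUFA2 and ATP5F1A, beside 15.6% and 19.5% of all genes. The mitochondrial partner in complex III, MT-CYB, was at -0.94 in the same comparison.

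**Figure D5:**
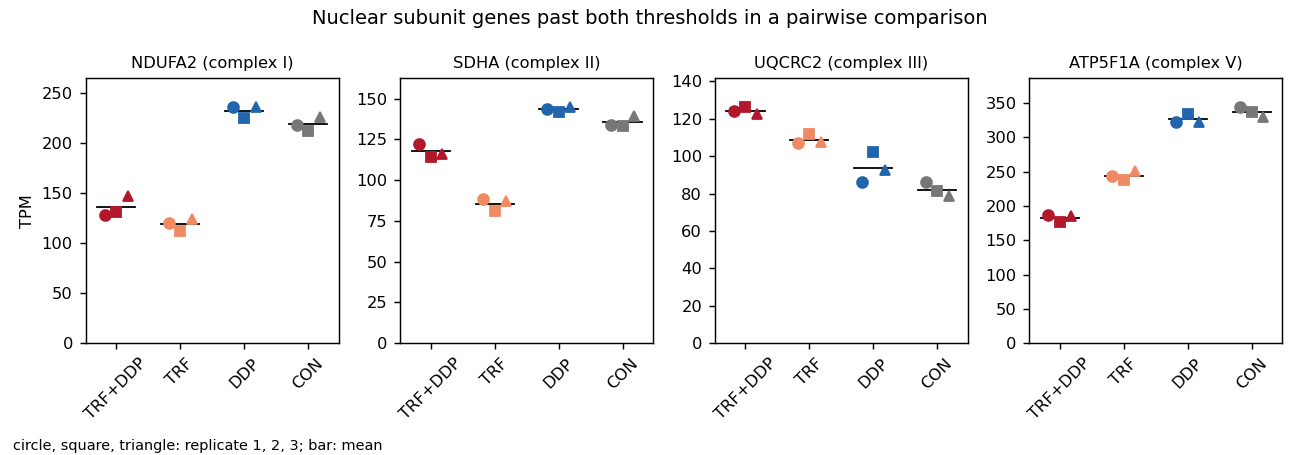
TPM of NDUFA2, SDHA, UQCRC2 and ATP5F1A, the nuclear members past both thresholds in a pairwise comparison, in each library by group, with 1 point per library, a bar at the mean and axes that start at 0. NDUFA2, SDHA and ATP5F1A are lower in TRF+DDP than in DDP and in TRF than in CON, and UQCRC2 is higher.

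Between TRF+DDP and TRF, 0 of 45 nuclear members were called by limma, beside 10.2% of all genes higher and 6.10% lower. By the adjusted p alone 18 were higher and 4 lower, beside 28.1% and 19.8% (unadjusted p under 0.05 for 19 and 6). With TMM-style scaling these were 6 and 7, beside 3064 and 3553 of 13849 genes. In DDP against CON 0 were called, beside 1.86% of all genes higher and 0.159% lower. By the adjusted p alone 3 were higher and 1 lower, beside 10.0% and 2.17% (unadjusted p under 0.05 for 9 and 1). The 3 were NDUFS8 (0.18), COX6A1 (0.19) and COX8A (0.17), which with TMM-style scaling no longer passed, and the 1 was ATP5F1D (-0.39), a central stalk subunit of ATP synthase.

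The interaction was called for 10 of 45 nuclear members, 7 higher and 3 lower, beside the 13.5% and 16.3% of all genes. Besides SDHA and ATP5F1A, the calls that held in all 20 alternatives were COX7B (0.48, adjusted p = 0.00519), NDUFA4 (0.40, adjusted p = 0.00323) and UQCRB (0.46, adjusted p = 0.00922), small subunits of complexes IV, IV and III. COX7B had 49.7, 54.2 and 58.5 TPM in TRF+DDP, 37.2, 36.1 and 41.5 TPM in TRF, 45.9, 46.6 and 44.5 TPM in DDP, and 49.0, 46.0 and 41.5 TPM in CON. UQCRB had 304, 346 and 327 TPM in TRF+DDP, 223, 244 and 254 TPM in TRF, 288, 328 and 263 TPM in DDP, and 317, 295 and 281 TPM in CON. TRF libraries of UQCRB were lowest, and those of COX7B were low but overlapped with CON at 41.5 TPM. TRF+DDP libraries of COX7B lay above all others, and those of UQCRB overlapped with DDP and CON. ATP5F1D (0.52), NDUFB3 (0.35), COX5A (0.19), NDUFS8 (-0.21) and COX4I1 (-0.18) were called as deposited, and each lost its call in 8 to 14 of the 20 alternatives. The count of 10 was 5 without DDP replicate 3, TRF replicate 1 or TRF+DDP replicate 3, and 6 without CON replicate 1 or CON replicate 2.

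Many nuclear members hardly differed. In TRF+DDP against DDP the smallest differences by complex were 0.02 for NDUFS3 of the quinone-binding module of complex I, -0.00 for SDHC, 0.04 for UQCRC1, a core protein of complex III, -0.01 for COX5B of complex IV and -0.06 for ATP5MC1, a gene for the c ring of ATP synthase. COX5B, for example, had 252 to 279 TPM in TRF+DDP, 271 to 293 TPM in TRF, 270 to 272 TPM in DDP and 268 to 273 TPM in CON, all overlapping. Levels of nuclear members, as group means, spanned 25.1 to 1041 TPM, below those of every mitochondrial message, which spanned 1168 to 17544 TPM.

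Promoters of 36 of the 45 nuclear members were found in RefSeq (GRCh38.p14), as 41 windows of 300 bases, 250 before and 50 after a start. They were searched on both strands for the letters GCGCATGC (a core of NRF1 sites), CCGGAAG (a core of ETS family sites, bound by GABPA) and AAGATGGC (a core of YY1 sites), factors known to act on many such genes. The letters of NRF1 were in 19.5% of member windows and 3.05% of all 35116 windows, those of ETS in 29.3% and 10.3%, and those of YY1 in 17.1% and 2.89%. Of the 22199 windows of protein-coding genes, 3.74% held the letters of NRF1, 12.8% those of ETS and 3.53% those of YY1. At least 1 was in 51.2% of member windows, 14.9% of all and 18.4% of those of protein-coding genes. A match is a description of these letters only. Other forms of these sites were not searched, so a window without the letters may still hold a site.

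Windows of 4 members are printed, with matching letters in capitals: NDUFA2, ATP5F1A and SDHA, which fell, and SDHB, which shares complex II with SDHA and is the member whose window holds all 3 cores. They lie at chr5:140647581-140647880 (minus strand), chr18:46098247-46098546 (minus strand, the second of 2 starts), chr5:218070-218369 (plus strand) and chr1:17053983-17054282 (minus strand).
NDUFA2: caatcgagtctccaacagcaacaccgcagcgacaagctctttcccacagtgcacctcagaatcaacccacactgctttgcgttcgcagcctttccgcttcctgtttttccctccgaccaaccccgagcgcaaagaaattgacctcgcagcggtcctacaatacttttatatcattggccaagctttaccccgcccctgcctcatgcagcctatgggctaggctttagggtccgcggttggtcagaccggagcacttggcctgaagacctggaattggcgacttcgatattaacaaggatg
ATP5F1A: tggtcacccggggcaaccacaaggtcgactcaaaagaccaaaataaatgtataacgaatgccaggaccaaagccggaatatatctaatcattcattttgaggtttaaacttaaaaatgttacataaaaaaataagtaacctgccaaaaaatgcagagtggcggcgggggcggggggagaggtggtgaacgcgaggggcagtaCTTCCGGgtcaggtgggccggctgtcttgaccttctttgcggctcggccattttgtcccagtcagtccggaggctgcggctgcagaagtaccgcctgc
SDHA: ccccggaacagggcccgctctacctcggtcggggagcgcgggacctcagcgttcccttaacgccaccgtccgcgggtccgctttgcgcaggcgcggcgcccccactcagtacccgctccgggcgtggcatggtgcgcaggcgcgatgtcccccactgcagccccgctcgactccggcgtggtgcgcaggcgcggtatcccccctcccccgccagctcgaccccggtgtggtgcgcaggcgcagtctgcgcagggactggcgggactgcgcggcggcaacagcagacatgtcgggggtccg
SDHB: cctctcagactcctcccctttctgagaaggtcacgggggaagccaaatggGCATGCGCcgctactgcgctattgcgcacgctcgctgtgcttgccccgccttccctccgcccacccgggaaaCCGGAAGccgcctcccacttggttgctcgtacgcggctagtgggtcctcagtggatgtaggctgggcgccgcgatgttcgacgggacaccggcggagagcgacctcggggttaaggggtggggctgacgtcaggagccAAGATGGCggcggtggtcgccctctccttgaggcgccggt
NDUFA2 and SDHA hold none of these exact letters in these windows, and ATP5F1A holds those of ETS on the other strand in the window shown. Its first window, chr18:46104178-46104477, holds none. The window of UQCRC2, the only nuclear member called higher, also holds none and is not printed.

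Genes around the complexes were read from further lists. Their counts stand beside 11.8% of all genes called higher and 21.4% lower in TRF+DDP against DDP, and 8.41% and 17.1% in TRF against CON. Of 9 genes of mitochondrial transcription, 3 were called higher and 0 lower in TRF+DDP against DDP, TFAM (0.81), TFB2M (0.83) and TEFM (0.66), the last not without DDP replicate 3. The median of the list was 0.43. TFAM, which packages mitochondrial DNA and is needed to start its transcription, had 49.3, 53.7 and 48.6 TPM in TRF+DDP, 26.2, 34.5 and 25.6 TPM in TRF, 28.0, 33.0 and 24.6 TPM in DDP, and 25.7, 25.8 and 21.1 TPM in CON. TRF+DDP libraries were well above all the others. The polymerase POLRMT had -0.09 in TRF+DDP against DDP and 0.04 in TRF against CON, neither called. In TRF against CON the list had 1 call, MRPL12 (0.92), a ribosomal protein also reported to bind POLRMT.

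Of 21 genes of mitochondrial RNA processing and turnover, 4 were called higher (beside 11.8% of all genes) and 0 lower (beside 21.4%) in TRF+DDP against DDP, with TRMT10C (0.84), a subunit of the enzyme that cuts transfer RNAs at their 5′ ends, among them. In TRF against CON 3 were called higher and 1 lower. PNPT1 (1.32), a nuclease that degrades mitochondrial RNA, and PRORP (0.98), the catalytic subunit of the same 5′ enzyme, were highest in TRF. PNPT1 had 14.4, 13.8 and 14.0 TPM in TRF+DDP, 24.6, 25.2 and 22.3 TPM in TRF, 12.1 to 13.3 TPM in DDP, and 9.19, 8.65 and 9.15 TPM in CON (interaction lower, adjusted p = 3.25e-06). It was also called higher in TRF+DDP against CON (0.59), lost in 3 alternatives. FASTKD2, which binds the 16S rRNA, was 0.83 in TRF against CON.

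Assembly factors, which build the complexes without being part of them, gave calls in both directions. For complex I, 4 of 18 were called higher and 2 lower in TRF+DDP against DDP. NDUFAF8 (1.34), NDUFAF2 (0.93) and NDUFAF4 (0.93) rose and NUBPL (-1.35), which delivers iron-sulfur clusters, fell. NDUFAF2 had 103, 109 and 105 TPM in TRF+DDP, 110, 118 and 116 TPM in TRF, 55.6, 53.3 and 56.0 TPM in DDP, and 55.8, 56.4 and 56.8 TPM in CON, and so separated the media with no overlap. For complex III, 2 of 6 were called higher, BCS1L (0.94), which inserts the Rieske protein, and UQCC3 (0.84). For complex IV, 2 of 23 were called higher, COX17 (0.72), a copper chaperone, and COA4 (0.70), and 1 lower, COX14 (-0.84). For complexes II and V, SDHAF1 (0.75) was called higher and FMC1 (-0.92) lower among 4 each. The calls in TRF against CON were 2 higher and 0 lower for complex I, 1 and 0 for complex III, 2 and 3 for complex IV, with PET100 (-0.65) among the lower, and 0 and 2 for complex V, with ATPAF1 (-0.62) beside FMC1. TMM-style scaling lost both PET100 and ATPAF1, leaving out TRF replicate 2 lost PET100, and quantile normalization or leaving out CON replicate 2 or TRF replicate 3 lost ATPAF1.

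Subunits outside the 45 gave few calls, and 0 of 3 further complex III genes passed by limma. NDUFAB1 (0.74) was the single one of 20 further complex I genes called in TRF+DDP against DDP. In complex IV, 2 of 4 tested were called, NDUFA4L2 (1.08), a paralog of NDUFA4, and COX6B2 (-2.00), an isoform known from testis, both of low level, and the call of NDUFA4L2 was lost without DDP replicate 1 or 2. COX6B2 was at 0.04 to 0.20 TPM in TRF+DDP, against 3.17 TPM and above in DDP. ATP5IF1, the inhibitor of ATP synthase, fell by 1.07 on the log2 scale, with 220, 222 and 247 TPM in TRF+DDP, 190, 209 and 215 TPM in TRF, 479, 484 and 482 TPM in DDP, and 420, 409 and 393 TPM in CON.

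Of 15 genes for electron carriers and coenzyme Q synthesis, 2 were called higher and 4 lower in TRF+DDP against DDP. PDSS1 (1.31), which makes the side chain of coenzyme Q, and CYCS (0.90), cytochrome c, rose, and COQ8B (-1.13) and COQ2 (-0.79) fell. COQ8A fell by 1.05 in TRF against CON on the log2 scale and was 0.22 in TRF+DDP against DDP, with an interaction of 1.27. Of 14 citric acid cycle genes 2 were called lower, IDH2 (-1.64), which makes mitochondrial NADPH, and SUCLG2 (-0.93), and 0 higher by limma. Among regulators of mitochondrial gene expression 3 of 13 tested were called higher, GABPB1 (1.04) and ESRRA (0.83) among them, and 3 lower, PRKAA2 (-0.63) and SIRT3 (-0.61) among them, whose calls were lost with TMM-style scaling and with quantile normalization. PPARGC1A was at or near 0 in all 12 libraries, at most 0.09 TPM. Of 12 genes of mitochondrial DNA maintenance 2 were called higher and 2 lower, with TWNK (0.99), the replicative helicase, and TOP1MT (-0.75), a topoisomerase, as examples, and TK2 (-0.94), whose call was lost in 13 of 21 alternatives. EXOG was 1.28 in TRF against CON, lost in 11 alternatives.

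Of 4 nuclear copies of mitochondrial genes that were tested, 1 was called lower in TRF against CON. MTATP6P1 had 154, 214 and 194 TPM in TRF+DDP, 218, 199 and 150 TPM in TRF, 228, 258 and 215 TPM in DDP, and 305, 314 and 296 TPM in CON, with a log2 fold change of -0.70 in that comparison, not called without TRF replicate 3, beside -0.69 for MT-ATP6. MTND1P23 and MTND6P3 had 0.55 and -0.23, neither past the adjusted p. MTCO1P12 was -0.45 in the same comparison and MT-CO1 -0.59. Whether these reads belong to the copies or to the mitochondrial messages was not tested.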

How the data were processed

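Poly(A)-selected RNA of 12 libraries (3 in each of 4 groups) was analysed from a table of TPM values as deposited. Per the study's methods, the authors cleaned reads by SeqPrep and sickle, mapped them by HISAT2, assembled transcripts by StringTie and tested differences by DESeq2, and the submitters' notes name edgeR. Which tool gave the deposited TPM is not stated there. Build, versions and strand use: not given in the sources used here. Since TPM keeps no read depth, depth and its counting error are unknown and no count model was used. Columns were grouped by the sample labels. Genes averaging 1 TPM or more entered limma 3.58.1 (R 4.3.3, trend and robust variance) as log2(TPM + 1), all 4 groups in a single model. Called genes passed both 0.05 for the adjusted p (Benjamini-Hochberg) and 1.5 for the fold, or, in the interaction, the adjusted p only. The script was tested on simulated data. Tables and figures used Python 3.11.15, numpy 2.4.6, pandas 2.3.3 and matplotlib 3.10.9. Members and 21 lists (247 of 251 genes matched) were chosen with earlier results of these data known. Named were all mitochondrial messages, called nuclear members, the least changed of each complex, up to 4 called genes per list with the largest differences, and fixed genes such as the rRNAs, TFAM, POLRMT, PPARGC1A and CYCS; NDUFV1, NDUFV2, NDUFS1 and ATP5F1B were added after their values were seen, as partners of called subunits. Alternatives were TMM-style scaling, quantile normalization, TPM over genes not on the mitochondrial chromosome, other filters, a pseudocount of 0.1, limma without trend, fits of the compared groups alone, a block for the replicate number, and each library left out in turn.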

Additional observations from a re-analysis of the deposited data

Results flagged for a closer look

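The effect of DDP differed between TRF medium and full medium, by limma's test of the interaction (adjusted p under 0.05), for 13 of the 58 members, 9 higher and 4 lower, beside 13.5% and 16.3% of all genes. The difference, as the DDP effect in TRF medium minus that in full medium on the log2 scale, was 0.56 for MT-ND1, 0.49 for MT-CO1 and -0.42 for MT-ND3 among the mitochondrial messages. Among the nuclear members it was 0.52 for ATP5F1D, 0.48 for COX7B, 0.46 for UQCRB, 0.40 for NDUFA4, 0.38 for SDHA, 0.35 for NDUFB3 and 0.19 for COX5A. It was -0.18 for COX4I1, -0.21 for NDUFS8 and -0.37 for ATP5F1A. ATP5F1D, NDUFB3, COX5A, COX4I1, NDUFS8 and MT-CO1 each lost the call in 8 to 14 of 20 alternatives, and the other 7 in 0.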

How the results depend on the processing

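Counts of called members follow in the order mitochondrial, then nuclear. Without the fold threshold they were 7 and 26 in TRF+DDP against DDP, 4 and 22 against TRF, 8 and 29 against CON, 9 and 24 in TRF against CON, and 4 nuclear in DDP against CON. The shares of all genes by the adjusted p alone are given above. With TMM-style scaling 1 mitochondrial message was called in TRF+DDP against DDP and 1 in TRF against CON, with 1 nuclear member in TRF against CON and 6 in the interaction. Nuclear medians were then 0.12 in TRF+DDP against DDP, 0.0108 against TRF, 0.11 in TRF against CON and -0.0246 in DDP against CON. Quantile normalization gave 1 mitochondrial call in TRF+DDP against TRF and 2 against CON, and nuclear medians of 0.0303 and -0.0111 there. TPM over genes not on the mitochondrial chromosome gave 5 mitochondrial calls in TRF against CON. Centring on the 13 messages, chosen after seeing the data, gave 1, 1, 0 and 1 mitochondrial calls in TRF+DDP against DDP, against CON, TRF against CON and the interaction. A fold over 1.5 left 0 and 0 interaction calls. No filter left 5 nuclear interaction calls and limma without trend 6. Leaving out 1 library gave 1 to 6 mitochondrial calls in TRF against CON, medians of -0.52 to -0.25 there and -0.15 to 0.0926 in TRF+DDP against TRF, and 2 to 7 mitochondrial and 5 to 9 nuclear interaction calls, with a mitochondrial interaction median of 0.0309 to 0.25. The cause was not tested. Same-numbered libraries did not deviate together (r of -0.0820 to 0.0493 across pairs), and with the replicate block the pairwise counts of called members were as without it, 2 mitochondrial and 2 nuclear in TRF+DDP against DDP. No called value changed sign in these alternatives, whereas nuclear medians near 0 did. The unknown depth limits all levels.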
